A study of Mus musculus with 3 samples.

Results

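The cyclins that drive the cell cycle were examined in primary epidermal keratinocytes of neonatal ICR mice. The list held 9 genes, namely Ccnd1, Ccnd2, Ccnd3, Ccne1, Ccne2, Ccna2, Ccnb1, Ccnb2 and Ccnf, out of 18193 genes that the array annotation names singly. Their probe sets were taken wherever the annotation gave exactly 1 gene symbol from the list. This found 21 probe sets for 8 of the 9 genes, out of 45037 probe sets that are not controls. Ccnb1 had no such probe set and was not analysed here.

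The groups were 2 RASSF9-/- cultures, called RASSF9-/- arrays 1 and 2, and 1 WT culture, each from a separate mouse and each hybridized to an Affymetrix GeneChip array of the mouse genome. RASSF9-/- mice were homozygous for a deletion inside an intron of RASSF9 that came with the insertion of an Epstein-Barr virus LMP1 transgene, so they also carry that transgene, and all of them descend from a single transgenic line. The methods describe a confluent plate per sample, kept for 2 days in serum-free keratinocyte medium with little calcium, whereas the sample labels give 48 h for RASSF9-/- and 24 h for WT. If the labels are right, the genotypes also differ in time in culture, and these cannot be told apart. RASSF9-/- array 1 and the WT array carry the same array date in their labels and RASSF9-/- array 2 carries another.

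Cyclins are the activating subunits of cyclin-dependent kinases (CDKs), and most of them accumulate and are destroyed in a fixed order through the cycle. D-type cyclins respond to growth factors, pair with Cdk4 and Cdk6 and start the phosphorylation of the retinoblastoma protein in G1. E-type cyclins pair with Cdk2 at the entry into S phase, cyclin A2 acts in S and G2, and cyclin B2 pairs with Cdk1 in mitosis. Cyclin F activates no CDK and instead serves as the substrate-binding subunit of a ubiquitin ligase. In epidermis, dividing keratinocytes lie mainly in the basal layer and leave the cycle as they differentiate.

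The deposited values were MAS5 signals, linear intensities with every array scaled to the same trimmed mean. The brightest of the Bacillus subtilis controls, for which mouse RNA holds no target, had 78.4, and a signal under this limit was read as background. Where WT lay in the background, the RASSF9-/- geometric mean over that limit is given as a lower bound of the fold. The test was limma, which pools information on spread across genes, on log2 signals of the brightest probe set of each gene. It covered 11089 genes whose mean log2 signal was at or above that of the median probe set, a signal of 82.7, and p-values were adjusted by Benjamini-Hochberg over all of them. With 1 WT array the spread came from the RASSF9-/- pair alone, and an exact two-sided permutation of 3 arrays cannot give a p below 0.333. A single WT array has no replicate error of its own.

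As a check of the arrays, the 2 Rassf9 probe sets had signals of 59.6 and 68.2 on RASSF9-/- array 1, 120 and 76.7 on RASSF9-/- array 2, and 478 and 340.4 on the WT array. Of the RASSF9-/- signals, only the 120 on array 2 lay above the background limit. The log2 fold change of Rassf9 was -2.50 (standard error 0.67), and limma did not call the disrupted gene either. Whether these probes lie outside the deleted part is not given in the sources used here. Keratinocyte markers were present on every array in 7 of 8 cases, with Krt15 in the background on all of them. Of the 8, 5 were lower on both RASSF9-/- arrays, Krt15 among them, and 1 was higher. Trp63 had 1460 and 1543 on RASSF9-/- arrays 1 and 2 and 3239 on the WT array. Median signals were 99 and 81.7 for RASSF9-/- arrays 1 and 2 and 90.8 for WT. The 18 hybridization controls, bacterial and phage transcripts added to each sample in equal amounts by the standard protocol of this platform, were higher than on the WT array in all 18 cases on each RASSF9-/- array, by a median of 0.48 on array 1 and 0.17 on array 2 (log2 signal). The ratio of the 3' to the 5' actin control, a sign of RNA integrity, was 1.41 and 1.37 on RASSF9-/- arrays 1 and 2 and 1.43 on the WT array.

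Of the 8 cyclins measured, 7 had higher signals than WT on both RASSF9-/- arrays, and 0 were lower on both. The largest differences were those of Ccna2, Ccnb2, Ccnd1 and Ccne2, each of which was measured above 2-fold on either RASSF9-/- array. Ccnd2, Ccnd3 and Ccne1 were higher by less, and Ccnf lay on both sides of WT. None of the 8 genes passed the test. Over all genes, limma called 0.0812% at an adjusted p under 0.05, all of them higher and none a cyclin.

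The count of cyclins higher on both RASSF9-/- arrays was 7 of 8, against 33.6% of all genes tested, and 0 of 8 were lower on both, against 32.7%. With the arrays scaled to the hybridization controls, 5 of 8 were higher on both, since Ccnd3 and Ccne1 then lay below WT on RASSF9-/- array 1. The count at least 2-fold higher on both was 4 of 8, against 2.89% of all genes, and the same 4 had an unadjusted p under 0.05 from limma, against 3.11% of all genes higher at that level. With background signals raised to the limit, 2 of 8 were at least 2-fold higher on both, since Ccne2 and Ccnb2 were then 1.71-fold and 1.48-fold higher on RASSF9-/- array 1. By the t-test that the methods name, on the same values, 0 of 8 reached an unadjusted p under 0.05. The median log2 fold change over the 8 genes was 1.16, with 0.83 on RASSF9-/- array 1 and 1.49 on RASSF9-/- array 2, and over all genes tested it was -0.01. Both differences share the WT array. Ccne2 and Ccnb2 had WT signals under the filter of 82.7 and entered the test only through their RASSF9-/- signals, so these counts and medians describe the list and do not test it.

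**Figure D1:**
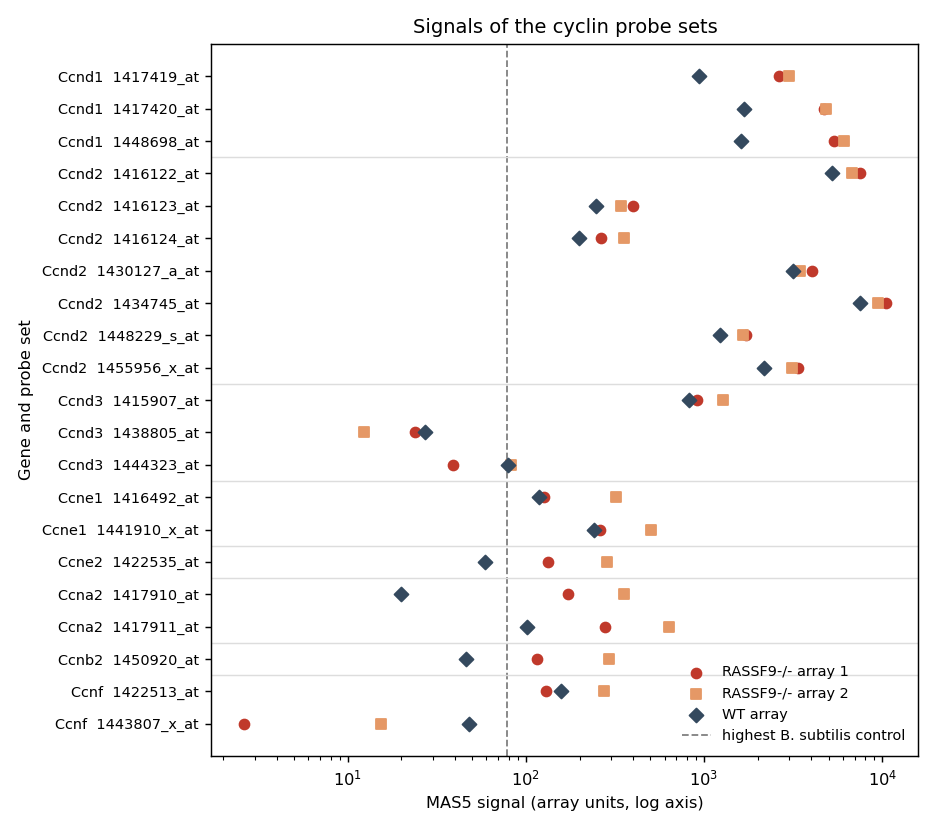
MAS5 signal (array units, log axis) of the 21 cyclin probe sets, in which each marker is an array and the dashed line is the brightest Bacillus subtilis control (78.4). The RASSF9-/- markers of all 3 Ccnd1 and both Ccna2 probe sets lie to the right of WT, and the WT markers of Ccne2, Ccnb2 and the first Ccna2 probe set lie in the background.

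Among the D-type cyclins, Ccnd1 stood apart. Cyclin D1 is the D-type cyclin most directly induced by growth factor signalling through the RAS-ERK pathway. Its brightest probe set, 1448698_at, had signals of 5354 and 6088 on RASSF9-/- arrays 1 and 2, against 1614.5 on the WT array. Both RASSF9-/- signals were far above WT and close to each other. The log2 fold change was 1.82 (standard error 0.33, 95% interval 1.02 to 2.63 before adjustment, adjusted p = 0.323 from limma), or 3.54-fold higher. Of the 11089 genes tested, 1.29% had a log2 fold change at least as large.

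The other probe sets of Ccnd1 gave the same direction. Probe set 1417420_at had 4733 and 4838 on the RASSF9-/- arrays and 1682 on the WT array, and 1417419_at had 2636 and 3001 on the RASSF9-/- arrays and 935 on the WT array. Tested singly among all 45037 probe sets without a filter, where limma called 0.0244%, the 3 probe sets of Ccnd1 had log2 fold changes of 1.51 to 1.82 and adjusted p-values of 0.355 to 0.524. These probe sets read the same RNA and are not independent replicates.

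Ccnd2, which encodes cyclin D2, was higher by a small amount on every probe set. Its brightest, 1434745_at, had signals of 10545 and 9424 on RASSF9-/- arrays 1 and 2, against 7547 on the WT array. The log2 fold change was 0.40 (standard error 0.31, 95% interval -0.36 to 1.16 before adjustment, adjusted p = 1.00 from limma). All 7 probe sets of Ccnd2 were higher on both RASSF9-/- arrays, with log2 fold changes of 0.25 to 0.63. The hybridization controls, read beside this, were higher by 0.48 and 0.17 (median log2) on RASSF9-/- arrays 1 and 2. With the arrays scaled to these controls, a setting chosen after the data were seen, the log2 fold change of Ccnd2 was 0.08 and that of Ccnd1 was 1.50, while the median over all genes was -0.33.

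Ccnd3, the gene of cyclin D3, had signals of 909 and 1272.5 on RASSF9-/- arrays 1 and 2, against 824 on the WT array, on probe set 1415907_at. The first RASSF9-/- array was close to WT and the second above it. The log2 fold change was 0.38 (standard error 0.42, 95% interval -0.64 to 1.41 before adjustment, adjusted p = 1.00 from limma), and 0.07 when scaled to the hybridization controls. Its other 2 probe sets were dim. Probe set 1438805_at was in the background on every array, with 23.9 and 12.3 on the RASSF9-/- arrays and 27.1 on the WT array. Probe set 1444323_at lay near the limit, with 39.2 and 82.5 on the RASSF9-/- arrays and 79.3 on the WT array.

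Of the E-type cyclins, Ccne1 differed from WT mainly on RASSF9-/- array 2. Its brighter probe set, 1441910_x_at, had signals of 262 and 501 on RASSF9-/- arrays 1 and 2, against 240.1 on the WT array. The other, 1416492_at, repeated this with 127 and 318 on the RASSF9-/- arrays and 119 on the WT array. On both probe sets RASSF9-/- array 1 was close to WT and array 2 stood above it. The suffix of the brighter marks probes that may also match other transcripts, so its level is uncertain. The log2 fold change of the brighter was 0.59 (standard error 0.59, 95% interval -0.82 to 2.01 before adjustment, adjusted p = 1.00 from limma).

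Ccne2, the second E-type cyclin gene and a target of E2F transcription factors, was higher on both RASSF9-/- arrays. Signals of its probe set 1422535_at were 134 and 285 on RASSF9-/- arrays 1 and 2, against 59.2 on the WT array, which was in the background, so the RASSF9-/- level was at least 2.49-fold higher (measured log2 fold change 1.72, standard error 0.70, adjusted p = 0.892 from limma). RASSF9-/- array 2 was 2.13-fold above RASSF9-/- array 1, a gap of 1.09 on the log2 scale within the pair.

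Ccna2 had the largest log2 fold change of the 8 genes as measured. Cyclin A2 is needed for DNA replication and for entry into mitosis. Its brighter probe set, 1417911_at, had signals of 278.5 and 639 on RASSF9-/- arrays 1 and 2, against 102 on the WT array. Both RASSF9-/- arrays lay above WT, and array 2 lay 2.29-fold above array 1. The log2 fold change was 2.05 (standard error 0.66, 95% interval 0.46 to 3.64 before adjustment, adjusted p = 0.689 from limma), or 4.14-fold higher, and 0.938% of the genes tested had one at least as large.

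The dimmer Ccna2 probe set, 1417910_at, had signals of 172 and 357 on the RASSF9-/- arrays and 19.9 on the WT array. WT was in the background, so the RASSF9-/- level was at least 3.16-fold higher. The measured log2 fold change on this probe set was 3.64 (adjusted p = 0.546 from limma over all probe sets), well above the 2.05 of the brighter probe set. The dimmer probe set therefore gave the same direction with a size that depends on how background is read.

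Ccnb2, which encodes a partner of Cdk1 in mitosis, had signals of 116 and 291.5 on RASSF9-/- arrays 1 and 2, against 45.9 on the WT array, on its single probe set 1450920_at. WT was in the background and both RASSF9-/- arrays were above the limit, so the RASSF9-/- level was at least 2.34-fold higher (measured log2 fold change 2.00, standard error 0.76, adjusted p = 0.830 from limma). RASSF9-/- array 2 was 2.52-fold above RASSF9-/- array 1, the widest gap within the pair among the 8 genes.

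Ccnf did not follow Ccna2 and Ccnb2 on both arrays, although cyclin F also peaks in G2. Its brighter probe set, 1422513_at, had signals of 130 and 275 on RASSF9-/- arrays 1 and 2, against 158 on the WT array. RASSF9-/- array 1 was below WT and array 2 above it. The log2 fold change was 0.26 (standard error 0.67, 95% interval -1.35 to 1.88 before adjustment, adjusted p = 1.00 from limma). Its other probe set, 1443807_x_at, was in the background on every array, with 2.6 and 15.4 on the RASSF9-/- arrays and 47.7 on the WT array, and gives no direction.

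**Figure D2:**
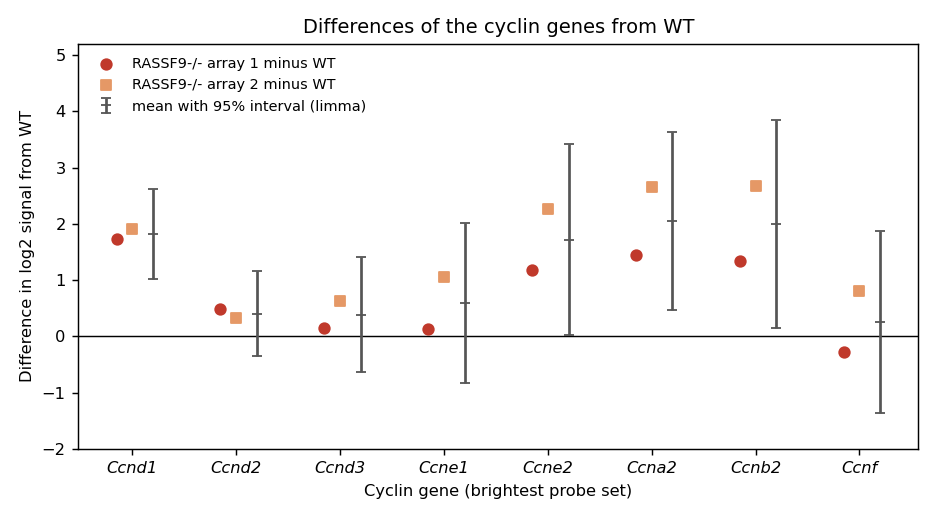
Difference in log2 signal from WT of the 8 measured cyclin genes, on RASSF9-/- array 1 (circles), on RASSF9-/- array 2 (squares), and as their mean with the 95% interval of limma before adjustment (bars). The intervals of Ccnd1 (1.02 to 2.63), Ccna2 (0.46 to 3.64), Ccnb2 (0.15 to 3.85) and Ccne2 (0.02 to 3.42) lie above 0. Those of Ccnd2, Ccnd3, Ccne1 and Ccnf include it. WT of Ccne2 and Ccnb2 lies in the background, so the sizes drawn for these genes are uncertain.

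The RASSF9-/- arrays agreed more closely for the D-type cyclins than for the others. Array 2 minus array 1 on the log2 scale was -0.16 for Ccnd2, 0.19 for Ccnd1 and 0.48 for Ccnd3. For the other genes it was 0.94 for Ccne1, 1.08 for Ccnf, 1.09 for Ccne2, 1.20 for Ccna2 and 1.33 for Ccnb2. All 5 cyclins of S phase, G2 and mitosis were thus higher on array 2, by factors between 1.91 (Ccne1) and 2.52 (Ccnb2). Of the 11089 genes tested, 5005 were higher on array 2 than on array 1, and the median of array 2 minus array 1 was -0.07. The median size of the gap, whatever its direction, was 0.38. Gaps in either direction as large as those of the 5 genes were found in 7.17% (Ccnb2) to 15.7% (Ccne1) of genes. The difference between the classes was not tested, and array 2 also differs in array date. On their brightest probe sets the D-type cyclins were also the brighter genes, with signals of 824 and above on every array. The other 5 had 639 and below, so on these probe sets class and signal level cannot be told apart. Ccnd2 also has dimmer probe sets. Of these, 1416123_at had 399 and 342 on RASSF9-/- arrays 1 and 2, and 1416124_at had 264 and 353. The part of signal level in the difference between the classes was not tested.

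Within the array date that WT shares, only RASSF9-/- array 1 can be compared with WT, with no replicate. There the log2 difference was 1.73 for Ccnd1, 1.45 for Ccna2, 0.48 for Ccnd2, 0.14 for Ccnd3, 0.13 for Ccne1 and -0.28 for Ccnf. For Ccnb2 and Ccne2, with WT in the background, it was 1.34 and 1.18 as measured. With background signals raised to the limit, Ccnb2 and Ccne2 were 1.48-fold and 1.71-fold higher on this array. In cultures measured in bulk, more cells in cycle and more transcript per cycling cell cannot be told apart.

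**Figure D3:**
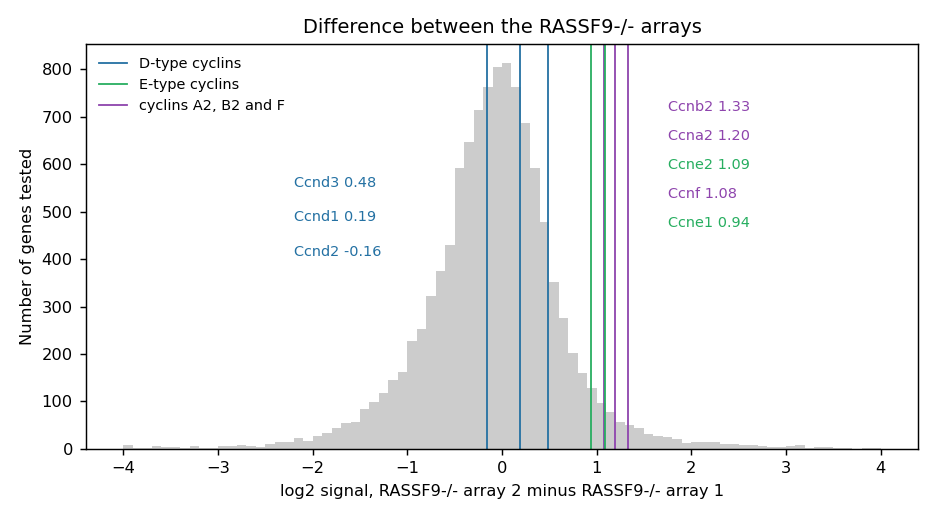
Histogram of the log2 signal of RASSF9-/- array 2 minus RASSF9-/- array 1 for the 11089 genes tested (values beyond 4 drawn at 4), with vertical lines at the 8 cyclin genes, coloured by class. The D-type cyclins lie between -0.16 and 0.48, and the other 5 lie between 0.94 and 1.33.

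Promoter sequences from RefSeq (GRCm38.p6) were found for 5 of the 9 genes, and those of Ccnb2, Ccnf and Ccne1 are printed because these genes differed in pattern, with Ccnb2 above WT on both RASSF9-/- arrays, Ccnf on both sides of it and Ccne1 above it mainly on array 2. The cell-cycle genes expressed in G2 and mitosis are known for CCAAT boxes, bound by NF-Y, and for the CHR element, bound by the DREAM and MuvB complexes. Each sequence gives the 250 bases before the annotated start, 5′ to 3′ along the gene. Capitals mark CCAAT and the letters TTTGAA or TTTAAA of the CHR element, found on the printed strand (TTTAAA reads the same on both strands).
Ccnb2, chr9:70421555-70421804, minus strand: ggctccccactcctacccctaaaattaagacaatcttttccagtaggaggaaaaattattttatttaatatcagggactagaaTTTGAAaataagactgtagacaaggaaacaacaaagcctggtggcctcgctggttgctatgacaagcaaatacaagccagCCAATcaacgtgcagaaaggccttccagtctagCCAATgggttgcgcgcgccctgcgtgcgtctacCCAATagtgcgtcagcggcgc
Ccnf, chr17:24251410-24251659, minus strand: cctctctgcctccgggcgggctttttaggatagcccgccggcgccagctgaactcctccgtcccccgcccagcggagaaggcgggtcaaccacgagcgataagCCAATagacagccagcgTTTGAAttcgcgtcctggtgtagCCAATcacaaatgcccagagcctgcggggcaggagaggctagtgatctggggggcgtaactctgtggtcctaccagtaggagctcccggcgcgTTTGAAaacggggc
Ccne1, chr7:38107491-38107740, minus strand: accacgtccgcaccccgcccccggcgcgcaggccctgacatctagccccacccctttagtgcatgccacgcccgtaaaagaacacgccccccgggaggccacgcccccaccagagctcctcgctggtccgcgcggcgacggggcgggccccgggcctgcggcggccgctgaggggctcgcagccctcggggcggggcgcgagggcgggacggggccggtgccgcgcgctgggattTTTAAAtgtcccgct
The window of Ccnb2 held 3 CCAAT matches and 1 CHR match, that of Ccnf held 2 and 2, and that of Ccne1 held no CCAAT match and 1 CHR match. Both strands were searched, and no match overlapped one of the other kind. Over 32851 promoter windows of this length, 33.8% held CCAAT, 25.2% held the CHR letters and 8.78% held both. The letters of an E2F site (TTT, then G or C at each of the following 2 places, then CGC) were in none of the windows of the 5 genes and in 1.86% of all windows. Ccnb2 and Ccnf, with both kinds of match, had log2 fold changes of 2.00 and 0.26. A match describes the letters and not binding, and no match says nothing of the factor.

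Among the CDKs and the kinase that activates them, 7 of 8 genes were measured and limma called 0. Of the 7, 5 were higher and 1 lower on both RASSF9-/- arrays, against 33.6% and 32.7% of all genes tested. The median log2 fold change of the 7 was 0.24. Cdk1, the mitotic kinase partner of cyclins A2 and B2, had signals of 503 and 1033 on RASSF9-/- arrays 1 and 2, against 56.7 on the WT array, at least 9.20-fold higher (limma adjusted p = 0.257). Cdk1, 1 of the 5 counted as higher, had a WT signal in the background and entered the test only through its RASSF9-/- signals. Cdk2, the partner of E-type cyclins, was at -0.13. Cdk4 and Cdk6, the partners of D-type cyclins, were at 0.23 and 0.48, and Cdk4 lay on both sides of WT. Cdk7 and Ccnh, subunits of the CDK-activating kinase, were at 0.24 and 0.37 on the log2 scale. On RASSF9-/- array 1 they lay 0.09 and 0.23 above WT, less than the hybridization controls did (median 0.48). The counts of this list and of the following lists were not repeated with the arrays scaled to those controls.

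Of 7 CDK inhibitors, 6 were measured, with 0 called and a median of -0.55. On both RASSF9-/- arrays 1 was higher and 4 were lower, against 33.6% and 32.7% of all genes tested. Cdkn1a, which encodes the broad CDK inhibitor p21, was at -0.36 (standard error 0.32). Cdkn1b, the gene of p27, was at -0.86 (standard error 0.56), with -0.35 and -1.38 on RASSF9-/- arrays 1 and 2. Cdkn2b, which encodes an inhibitor of Cdk4 and Cdk6, was at -0.78 (standard error 0.53), with -0.19 and -1.36 on these arrays. Cdkn1c, the 1 inhibitor counted as higher, was at least 1.61-fold higher, with WT in the background. It entered the test only through its RASSF9-/- signals. Genes that phosphorylate or dephosphorylate CDKs showed small differences, with 4 of 5 measured, a median of 0.07 and 0 called. In this group the phosphatase gene Cdc25b was at -0.45 and the kinase gene Pkmyt1 at 0.20.

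Genes that act in the destruction of cyclins included some of the larger differences. All 14 were measured, and 0 were called. On both RASSF9-/- arrays 8 were higher and 4 lower, against 33.6% and 32.7% of all genes tested. At least 2-fold higher on both were 5 of 14, against 2.89% of all genes, and the median was 0.23. Of the 5, Fbxo5 had a WT signal of 38.1, in the background, and entered the test only through its RASSF9-/- signals. Ube2c, the ubiquitin-conjugating enzyme of the anaphase-promoting complex, had signals of 474 and 1207 on RASSF9-/- arrays 1 and 2, against 90.3 on the WT array, which gave 3.07 on the log2 scale (SE 0.66, limma adjusted p = 0.346). Fbxo5, an inhibitor of the same complex, was at least 2.60-fold higher. Skp2, which targets p27 for destruction, was at 1.76, and Cks1b, its cofactor, at 1.41.

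Regulators of cyclin transcription went both ways, with 17 of 19 measured, 0 called and a median of 0.03. On both RASSF9-/- arrays 6 were higher and 5 lower, near the 33.6% and 32.7% of all genes tested. E2f7, a repressor among E2F factors, was at least 3.03-fold higher, with WT in the background. It entered the test only through its RASSF9-/- signals. E2f2, an activator of the same family, had signals of 80.5 and 16.4 on RASSF9-/- arrays 1 and 2, against 491 on the WT array, at least 6.18-fold lower (limma adjusted p = 0.535). This gene entered the test only through its WT signal. Rb1, the gene of the retinoblastoma protein, was at -0.997, and Myc, which promotes growth and G1 progression, was at 0.72.

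Other members of the cyclin family, most of which act in transcription or outside the cycle, had log2 fold changes on both sides of 0. Of 13, 11 were measured, with 3 higher and 4 lower on both RASSF9-/- arrays, against 33.6% and 32.7% of all genes tested. Of the 11, 0 were called, and they had a median of -0.18. Their log2 fold changes lay between -0.66 and 0.34, a range that holds Ccnf, while the other 7 measured cell-cycle cyclins lie above it, Ccnd3 (0.38) and Ccnd2 (0.40) narrowly. Ccnc, a subunit of the Mediator kinase module, was at 0.34, and Ccnt2, a subunit of the elongation factor P-TEFb, was at -0.28.

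**Figure D4:**
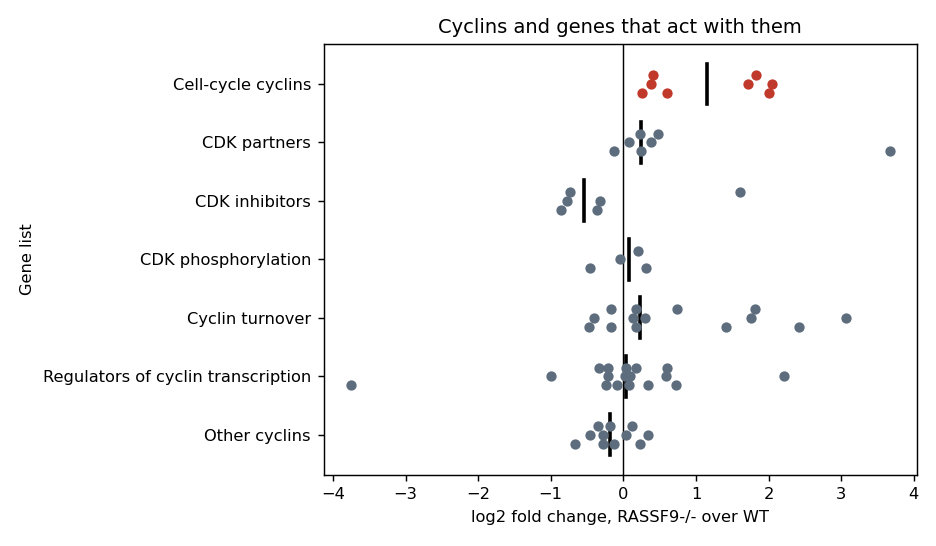
Log2 fold change of RASSF9-/- over WT for the measured genes of each list, with 1 point per gene and a bar at the median. The cell-cycle cyclins (median 1.16) lie to the right of 0, while the other cyclins have a median of -0.18; Cdk1 and Ube2c are the points beyond 3, and E2f2 is the point beyond -3.

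The genes whose pair of differences from WT lay nearest to that of Ccnd1 were Skp2, Acot7, Rab32, Rpp40 and Mlkl, at Euclidean distances of 0.15 to 0.20 on the log2 scale. Nearest to the mean of Ccna2, Ccnb2 and Ccnf were Ncapg, Clec4n, Dock4, Rrm2 and Ngfr, at distances of 0.12 to 0.14. That mean was 0.84 on RASSF9-/- array 1 and 2.04 on array 2, where none of its cyclins lies. Ccna2 was at 1.45 and 2.65, Ccnb2 at 1.34 and 2.67, and Ccnf at -0.28 and 0.80. Nearness to the mean is therefore not likeness to any of these cyclins. The likeness rests on 2 values per gene that share the WT array.

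Markers of other cells were read beside these results. Suprabasal keratinocyte markers had summed signals of 2695 and 5819 on RASSF9-/- arrays 1 and 2 and 11089 on the WT array, with 5 of 7 lower on both RASSF9-/- arrays. Melanocyte markers were above the background limit on every array in 6 of 6 cases, and their sum was 24569 and 34602 on RASSF9-/- arrays 1 and 2 and 28986 on the WT array. Fibroblast markers, with 5 of 7 above the limit on every array, summed to 4722 and 1282 on RASSF9-/- arrays 1 and 2 and 2758 on the WT array. Without Postn, the brightest of them, the sum was 1035 and 811 on RASSF9-/- arrays 1 and 2 and 1320 on the WT array, and 1 of 7 was higher and 3 lower on both RASSF9-/- arrays. For leukocytes 3 of 6 markers were in the background on every array, among them Ptprc, and the sum was 1187 and 1843 on RASSF9-/- arrays 1 and 2 and 967 on the WT array. Without Csf1r it was 395 and 157 on RASSF9-/- arrays 1 and 2 and 183 on the WT array. On both RASSF9-/- arrays 3 of 6 were higher and 1 lower. All of these but Csf1r were in the background on every array and give no direction. For endothelial cells, Pecam1 and Cdh5 were in the background on every array, and the sum of the 4 markers was 276 and 330.1 on RASSF9-/- arrays 1 and 2 and 254.5 on the WT array. The part of these cells in the cyclin differences was not tested.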

How the data were processed

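Gene expression was measured in primary keratinocytes of neonatal ICR mice on Affymetrix GeneChip arrays of the mouse genome, 2 for RASSF9-/- and 1 for WT. The values that the authors deposited were MAS5 intensities on a linear scale, 1 for each probe set, with every array scaled to a trimmed mean of 500. Detection calls, image files, the GeneSpring analysis named in the methods and protein sequences were not used here, and the MAS5 version is not given in the sources used here.

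Probe sets were named by the platform annotation, which gave 1 symbol to 34945 probe sets, several to 932 and none to 9160. Signals were set to log2 without a pseudocount or further scaling. Probe sets at or above the 50th percentile of mean log2 signal were kept, and each gene was represented by its brightest. The genotypes were compared by lmFit and eBayes with an intensity trend in limma 3.58.1 (R 4.3.3), two-sided, with Benjamini-Hochberg adjustment and a threshold of 0.05. The fit had 1 residual and 5.31 prior degrees of freedom. Array date could not be a term, since no residual degree of freedom would remain. The number of arrays limits the precision.

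All cyclins were named, and of each list up to 4 genes that lay on the same side of WT on both RASSF9-/- arrays, ranked by the lesser of their 2 differences, besides Cdk1, Cdk2, Cdk4, Cdk6, Cdkn1a and Rassf9. The members, the lists and the background limit (the highest of 27 Bacillus subtilis control probe sets) were chosen with earlier results of these data known. Alternatives covered scaling, filters, a pseudocount, probe set choice, the test, background and each RASSF9-/- array left out.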

Additional observations from a re-analysis of the deposited data

How the results depend on the processing

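No cyclin passed an adjusted threshold, and none reached p under 0.05 by the methods' t-test, under any alternative that gave a test. The log2 fold changes of Ccnd1, Ccnd2, Ccnd3, Ccne1, Ccne2, Ccna2 and Ccnb2 kept their direction under every alternative that measured them. Over the alternatives that kept both RASSF9-/- arrays, the ranges were 1.50 to 1.84 for Ccnd1 and 1.73 to 2.84 for Ccna2. They were 1.32 to 1.73 for Ccne2 and 1.23 to 2.01 for Ccnb2. For Ccnd2, Ccnd3 and Ccne1 they were 0.08 to 0.48, 0.07 to 0.41 and 0.28 to 0.68. The lowest of each came with scaling to the hybridization controls, where Ccnd3 and Ccne1 lay below WT on RASSF9-/- array 1. With either RASSF9-/- array left out, the ranges were 1.73 to 1.91 for Ccnd1, 1.45 to 2.65 for Ccna2, 1.18 to 2.27 for Ccne2 and 1.34 to 2.67 for Ccnb2. Ccnf turned to -0.056 with the arrays scaled to the hybridization controls and lay at -0.28 to 0.80 with either RASSF9-/- array left out (-0.28 without array 2). A filter at the 75th percentile left 3 cyclins, with a median of 0.40 and 3 higher on both RASSF9-/- arrays, because the others were too dim. Leaving out each RASSF9-/- array gave a cyclin median of 0.83 to 1.49, with 7 to 8 genes higher and 0 to 1 lower, and no test was possible with 1 array against 1. Over all genes, the 9 called higher became 0 with quantile normalization, without the intensity trend, with background raised to the limit and by the methods' t-test after Benjamini-Hochberg adjustment, and 5 with the stricter filter or a pseudocount of 32. The methods' t-test without adjustment gave 255 higher and 234 lower. Scaling to the hybridization controls gave 14 higher and 9 lower, and it moved the median of all genes to -0.33 and the cyclins higher on both RASSF9-/- arrays to 5 of 8. The 0 called lower became 1 with division of each array by its median and with every probe set tested singly. The cause was not tested. No paired analysis was possible because WT has 1 array and its label carries no replicate number. Low signals limit Ccne2, Ccnb2 and the dimmer Ccna2 probe set, whose WT values lie in the background.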
